A study of Drosophila melanogaster with 3 samples.

Results

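The 47 genes described here encode homeodomain transcription factors that specify organs, appendages, muscles and neurons, outside the Hox, gap, pair-rule and segment polarity homeobox genes. They were chosen by name as 47 of 13945 protein-coding genes, and all 47 symbols matched the annotation. No measured value entered the choice, although earlier results of these data were known when the list was drawn up.

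ChIP-seq was used to map GAGA factor, which Trithorax-like (Trl) encodes, on chromatin of whole Drosophila melanogaster embryos. The embryos were of mixed sex, were 0 to 24 h old, and came from a Trl-MiMIC-GFP line in which an eGFP exon inside an intron of Trl makes a Trl-GFP fusion protein. An anti-GFP antibody was used to recover chromatin bound to the fusion protein in 3 biological replicates. All samples form 1 group of the same genotype and age, with no second condition, and whole embryos of this age range mix all stages and tissues. The thresholded dm6 list of the authors contained 4900 peaks, termed optimal peaks, while 30000 peaks per replicate were listed without that threshold, background included. Peaks were ranked by the authors' signal value, from rank 1 for the strongest. Read totals are not part of peak lists, so the depth is unknown.

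Homeodomain proteins bind DNA through a helix-turn-helix domain, and the genes listed here act as selectors of cell or organ identity. Many such genes are silenced by Polycomb group proteins where they are not used, and most are active in only some cells of the embryo. GAGA factor binds GA-rich DNA through a zinc finger, opens chromatin at promoters, and occurs at many Polycomb response elements. In whole embryos, binding in few cells and weaker binding in many cells cannot be told apart.

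A promoter summit was found at 17 of the 47 homeobox genes, counting an optimal summit within 500 bp of any annotated start site. That is 36.2% (exact 95% binomial interval 22.7 to 51.5%), beside 22.9% of all protein-coding genes. The homeobox genes are long, with a median of 12168 bp against 2166 bp over all protein-coding genes, and 32 of them fall in the longest of 5 length classes (over 6458 bp). Other protein-coding genes of the same length class and start site number, taken at their share bound, would give 14.8 of 47 bound genes. In the top 4900 peaks of each replicate alone, 18, 14 and 12 homeobox genes had a promoter summit in replicates 1, 2 and 3. The mean of 14.7 ± 3.06 (SD, n = 3) differed from the 14.6 ± 0.334 of the other genes of the same classes by less than the spread between replicates. Within 500 bp of any start site, the count of bound promoters was thus near that of genes of like length and start site number.

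Fewer homeobox genes carried a summit inside the gene than near a start site. An optimal summit lay in the body of 8 of the 47 genes (17.0%, interval 7.65 to 30.8%), beside 12.9% of all protein-coding genes, while other genes of the same classes would give 12.8. The replicates' own top lists gave 11, 8 and 9 genes, a mean of 9.33 ± 1.53 against 12.9 ± 0.191 for the other genes (SD, n = 3 each). All 3 counts were below the mean of the other genes, and the difference exceeded the SD of the replicates. That SD covers the spread between replicate lists for the same 47 genes, not counting error. The share of the same classes, 27.3%, lies inside the interval of 7.65 to 30.8%, so the optimal count does not set the homeobox genes apart. When any overlap of the peak with the gene was counted, 13 homeobox genes had a peak in the body, beside 23.1% of all protein-coding genes and 17.5 of 47 in the same classes. Among the stronger 2450 optimal peaks, 6 homeobox genes had a body summit, beside 7.35% of all protein-coding genes and 7.31 of 47 in the same classes, so the gap was smaller there.

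Including 10 kb to either side of the gene, 32 of the 47 had an optimal summit (68.1%, interval 52.9 to 80.9%), beside 65% of all protein-coding genes and 34.0 of 47 in the same classes. The share of the same classes, 72.3%, lies inside that interval. The replicates gave 28, 32 and 30 genes, a mean of 30 ± 2 against 33.9 ± 0.241 for the other genes (SD, n = 3 each), and all 3 counts were below that mean of the other genes. Among the stronger 2450 optimal peaks the gap was wider, with 15 homeobox genes against 24.5 for other genes of the same classes and beside 46.1% of all protein-coding genes. At promoters the stronger peaks left 6 homeobox genes against 7.92, beside 13.1% of all protein-coding genes. The homeobox genes had a mean of 2.11 other protein-coding genes starting within 10 kb, against 4.57 for genes of the same classes. The part of this neighbour number in the count within 10 kb was not tested. The replicates share many of these peaks, with 71.9% of all bound genes bound at a start site in all 3 top lists, and the optimal list rests on the same replicates. Of the 17 homeobox genes with an optimal promoter summit, 8 (47.1%) had a promoter summit in all 3 top lists. The part of shared peaks in the spread between replicates was not tested.

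**Figure D1:**
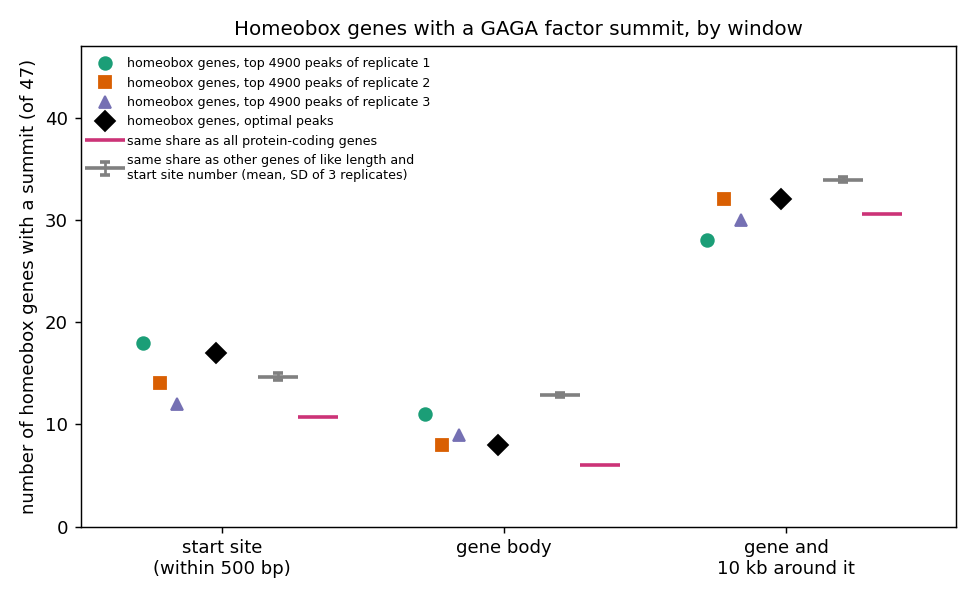
Number of the 47 homeobox genes with a summit near a start site (500 bp or less), in the gene body, or in the gene and 10 kb around it. Symbols show each replicate's top 4900 peaks and the optimal peaks, gray bars show other genes of like length and start site number (mean and SD of 3 replicates), and pink bars show the share over all protein-coding genes. The 12 to 18 genes with a promoter summit lie on both sides of the gray bar, and the 8 to 11 with a body summit lie below it.

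Most promoter summits of the homeobox genes held GAGAG, a short core of the GAGA factor site. Both strands were searched up to 100 bp from the summit. The motif occurred at 14 of the 17 promoter summits of homeobox genes (82.4%, interval 56.6 to 96.2%), against 871 of 2629 promoter summits of other protein-coding genes (33.1%, interval 31.3 to 35.0%). Below are windows of 50 bp to either side of 10 summits of homeobox genes, read from the RefSeq Release 6 genome (dm6), plus strand, 5' to 3'. Capitals mark GAGAG, or CTCTC where it lies on the other strand. The first 5 are promoter summits with the motif in different densities, and the next 2 are promoter summits without it. The last 3 are intronic summits, 1 with a long run of the motif and 2 among the strongest, without it.
Ptx1 chr3R:30912488-30912588: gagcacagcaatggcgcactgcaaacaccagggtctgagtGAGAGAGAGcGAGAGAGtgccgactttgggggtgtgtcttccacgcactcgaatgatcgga
nub chr2L:12618232-12618332: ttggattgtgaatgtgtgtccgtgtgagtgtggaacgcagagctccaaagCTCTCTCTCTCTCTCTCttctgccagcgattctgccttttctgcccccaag
caup chr3L:12609489-12609589: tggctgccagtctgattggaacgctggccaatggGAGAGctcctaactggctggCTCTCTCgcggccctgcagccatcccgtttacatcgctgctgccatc
zfh2 chr4:501694-501794: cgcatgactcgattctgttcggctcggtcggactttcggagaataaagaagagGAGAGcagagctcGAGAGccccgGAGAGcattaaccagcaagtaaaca
zfh1 chr3R:30765774-30765874: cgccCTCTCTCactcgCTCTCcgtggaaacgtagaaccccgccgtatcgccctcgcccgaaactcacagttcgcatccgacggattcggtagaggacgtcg
ro chr3R:26881499-26881599: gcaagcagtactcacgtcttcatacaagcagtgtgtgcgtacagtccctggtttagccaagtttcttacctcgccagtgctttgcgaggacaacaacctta
tin chr3R:21378701-21378801: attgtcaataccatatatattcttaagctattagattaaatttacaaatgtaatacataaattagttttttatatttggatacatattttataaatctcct
hth chr3R:10622255-10622355: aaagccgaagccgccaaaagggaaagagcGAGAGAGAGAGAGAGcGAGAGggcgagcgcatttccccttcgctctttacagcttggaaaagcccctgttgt
zfh1 chr3R:30781738-30781838: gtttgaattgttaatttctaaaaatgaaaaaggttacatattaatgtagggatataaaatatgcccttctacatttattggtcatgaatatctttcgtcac
ct chrX:7618342-7618442: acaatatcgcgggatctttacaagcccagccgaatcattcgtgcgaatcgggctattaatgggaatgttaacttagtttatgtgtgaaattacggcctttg
The nub window held 1 long run of overlapping copies, the Ptx1 window held 2 neighbouring runs, and zfh2 and zfh1 had separate copies close together. The tin window was rich in A and T, and the ro window held no copy within 100 bp of the summit either.

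Shares were lower at other promoters of like rank or gene length. Other genes whose promoter summit fell in the same range of ranks had GAGAG at 603 of 1662 summits (36.3%), and other genes of the longest length class at 537 of 1194 (45.0%). The other homeobox genes, from the patterning hierarchy and the remaining classes, had it at 7 of 9 promoter summits (77.8%, interval 40.0 to 97.2%), so a high share was also seen outside the list. In the replicates' own top lists, GAGAG lay at 14 of 18, 13 of 15 and 9 of 12 promoter summits of homeobox genes. The mean of 79.8 ± 6.09% compares with 32.8 ± 0.766% for other genes (SD, n = 3 each), a gap larger than the spread between replicates, whose shares are read from 1 genome at partly shared peaks. The longer GAGAGAG occurred at 10 of 17 (58.8%), against 12.6% of promoter summits of other genes. Other genes of the longest length class had it at 19.9%, and the other homeobox genes at 3 of 9 (33.3%). It averaged 45.2 ± 5.70% in the replicates, against 11.9 ± 1.02% for other genes (SD, n = 3 each).

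Base composition moved with this result. Windows of 100 bp to either side of the homeobox promoter summits had a median of 53.2% G and C (range 30.8 to 65.7%), against 39.8% for other genes. Among windows of at least 50% G and C, GAGAG was present at 11 of 12 homeobox summits (91.7%, interval 61.5 to 99.8%), against 255 of 360 for other genes (70.8%, interval 65.8 to 75.5%). These intervals overlap. Among windows below 50% G and C it was present at 3 of 5 homeobox summits, against 616 of 2269 for other genes (27.1%). The choice of this split was made after the composition had been seen.

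Other motifs were rarer or less distinct at the 17 summits. TATCGATA, the DNA replication-related element (DRE), which reads the same on both strands and is found at many housekeeping promoters, was at 0 of 17 (interval up to 19.5%), against 216 of 2629 for other genes (8.22%). At 17 summits a share like that of other genes cannot be told from 0. GCCAT, the core of the site of the Polycomb recruiter Pho, was at 8 of 17 (47.1%, interval 23.0 to 72.2%), against 28.9% for other genes, which lies inside the interval. CAGGTAG, the site of the early activator Zelda, was at 1 of 17 (5.88%, interval 0.149 to 28.7%), in hbn, against 23 of 2629 for other genes (0.875%).

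**Figure D2:**
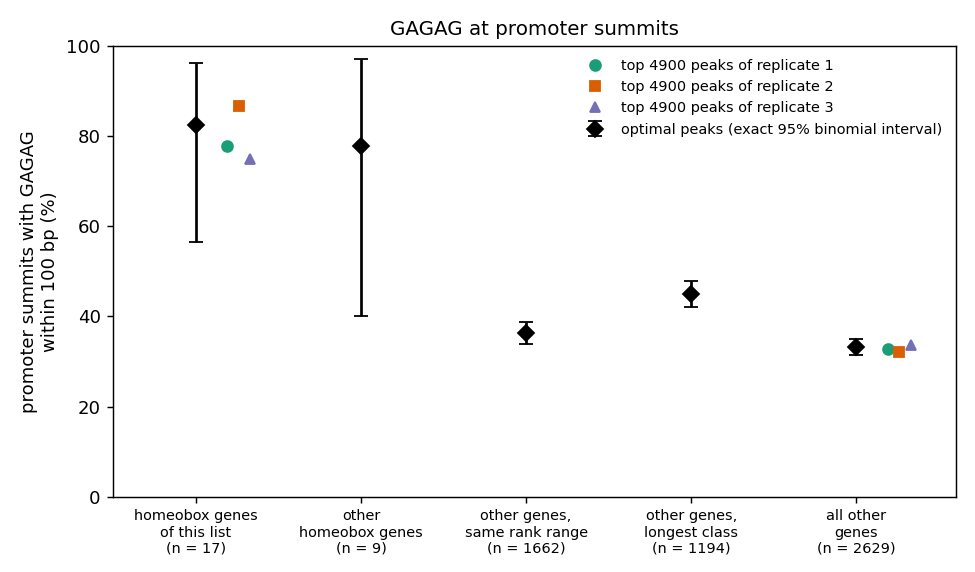
Share of promoter summits with GAGAG within 100 bp, in percent, for the homeobox genes of this list, the other homeobox genes, and other protein-coding genes. Diamonds are optimal peaks with exact 95% binomial intervals, and colored symbols are each replicate's top 4900 peaks. The homeobox genes of this list sit between 75.0 and 86.7% in the replicates and the set of all other genes at 32.0 to 33.6%, while the other homeobox genes sit at 77.8%.

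The most 5' start sites of homeobox genes were rich in GAGAG in genes with and without a promoter summit. Bound here means a summit at any start site, and 14 of the 17 had one at the most 5' start site. In ap, hth and nub the summit lay at another start site, so their copies were counted where no summit was called. Within 500 bp of the most 5' start site, 15 of the 17 bound and 28 of the 30 unbound homeobox genes held at least 1 copy (88.2% and 93.3%), against 66.7% of other protein-coding genes. Base composition moved with this too, with a median of 50.3% G and C in these windows at the 47 genes, against 42.4% at other genes, and its part was not tested. The number of copies differed more, with a median of 7 at bound homeobox genes (range 0 to 24), 2 at unbound ones (range 0 to 16), and 1 at other bound and other unbound genes alike. The highest numbers were at lbl with 24 copies, at hbn and ara with 16 each, and at Ptx1 and Rx with 15 each. Of these, ara had no promoter summit, so many copies did not always come with a called peak. The bound genes ro and tin had 0 copies in this window.

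The 17 promoter peaks were of middle to low rank among optimal peaks. Their ranks ran from 1619 at ro to 4796 at Rx, with a median of 2549 against 2066 for the strongest promoter peak of all 3193 bound protein-coding genes. None of the 17 was in the strongest 490 peaks, against 13.8% of all bound genes. In percentiles of each replicate's 30000 peaks, their medians were 86.2, 90.6 and 90.5, a mean of 89.1 ± 2.53 against 92.9 ± 0.0440 for all bound genes (SD, n = 3 each). Of the 17, 8 had a promoter summit in all 3 replicates' top 4900, 5 in 2 and 4 in 1 (47.1% in all 3), against 71.9% in all 3 among all bound genes.

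By role, a description that was not tested, 5 of 7 mesoderm and muscle genes had a bound promoter, where genes of the same classes would give 1.83. The replicates gave 3, 5 and 4 of these 7. The ladybird genes lbe and lbl, which specify muscle and heart precursors, lie close to each other on 3R. The peak of lbe (rank 1973) had its summit 54 bp downstream of the start site, in the 5' UTR, and reached percentiles of 93.5, 94.5 and 90.5 in replicates 1, 2 and 3. The peak of lbl (rank 2582) lay 283 bp upstream and reached 75.2, 94.7 and 93.0, low in replicate 1 alone. It is the 1 summit counted for more than 1 gene, since it also lies within 10 kb of lbe. The peak of Ptx1, a Pitx-family gene, lay 216 bp upstream (rank 2319) with percentiles of 94.6, 86.1 and 91.7. The peak of tin, which specifies heart and visceral mesoderm, lay 226 bp upstream (rank 3269) with 84.6, 93.5 and 86.6. The peak of zfh1, a zinc finger and homeodomain repressor, lay 102 bp upstream (rank 4550) with 78.6, 90.6 and 78.1, with replicate 2 above the others. The visceral muscle gene bap and the muscle founder gene slou had no summit within 10 kb.

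In the appendage group, 3 of 7 genes were bound, against 2.19 in the same classes, and the replicates gave 4, 2 and 3. The peak of ap, the selector of dorsal wing identity, lay 159 bp upstream of a start site inside the gene (rank 2062) with percentiles of 93.9, 92.3 and 92.4, among the most even of the 17. The peak of C15, a gene of the leg tip, lay 326 bp upstream (rank 2520) with 85.3, 91.1 and 92.2. The peak of Lim1, a LIM-homeodomain gene of leg and antenna, lay 169 bp upstream (rank 4713) with 86.2, 69.8 and 87.0, low in replicate 2. Lim1 was the third of the 17 without GAGAG within 100 bp, beside ro and tin. The leg selector Dll, al and the Bar genes B-H1 and B-H2 were not bound at a start site.

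Among wing, body wall and Hox cofactor genes, 3 of 8 were bound, against 3.14 in the same classes, and the replicates gave 2, 3 and 2. The peak of caup, an Iroquois gene of the wing and notum, lay 92 bp upstream (rank 1777) with 91.5, 95.7 and 92.0. The Iroquois neighbours ara and mirr had only a summit within 10 kb, at rank 3151 and 3620. That of rank 3151 lay 8111 bp from the ara start site and 19 bp from that of sowah. The peak of hth, the cofactor that brings Exd into the nucleus, lay 79 bp upstream of a start site inside the gene (rank 2517) with 92.3, 94.3 and 74.0, low in replicate 3. The peak of nub, a POU gene of wing growth, lay 63 bp upstream of a start site inside the gene (rank 3067). This peak reached percentiles of 67.2, 90.1 and 94.6, the widest range of the 17, and the gene Ref2 overlaps its summit too. The nub paralog pdm2 had no optimal promoter peak, and its nearest summit lay 1220 bp from a start site (rank 4050).

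Among the neuron and glia genes, 4 of 14 were bound, against 4.11 in the same classes, and the replicates gave 5, 2 and 2. The peak of zfh2, a zinc finger and homeodomain gene active in the nervous system and wing hinge, lay 66 bp upstream (rank 1823) with 89.6, 90.1 and 96.1. The peak of exex, a motor neuron gene, lay 154 bp upstream (rank 3780) with 80.2, 83.5 and 90.5. The brain genes hbn and Rx lie near each other on 2R with otp. The peak of hbn lay 281 bp upstream (rank 4745) with 84.3, 80.7 and 75.8, and that of Rx 80 bp upstream (rank 4796) with 84.7, 77.6 and 81.4. Both are among the last peaks of the optimal list.

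The eye specification genes had 1 bound promoter of 7, against 2.43 in the same classes, and 2, 1 and 0 in the replicates. It was that of eyg, a Pax gene of eye growth, 194 bp upstream (rank 2549) with 94.5, 85.2 and 82.4. The Pax6 genes ey and toy, the SINE-class genes so, Optix and Six4, and toe had none. The 3 nerve cord column genes vnd, ind and Dr had none either, against 0.775 in the same classes, and 1, 0 and 0 in the replicates. The photoreceptor gene ro had the strongest promoter peak (rank 1619) with percentiles of 94.3, 96.4 and 93.5, but its summit lay 378 bp from the ro start site and 185 bp from that of T48. The other 16 promoter summits (94.1% of the 17) had the homeobox gene's own start site as the nearest, against 72.3% of bound genes in all.

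**Figure D3:**
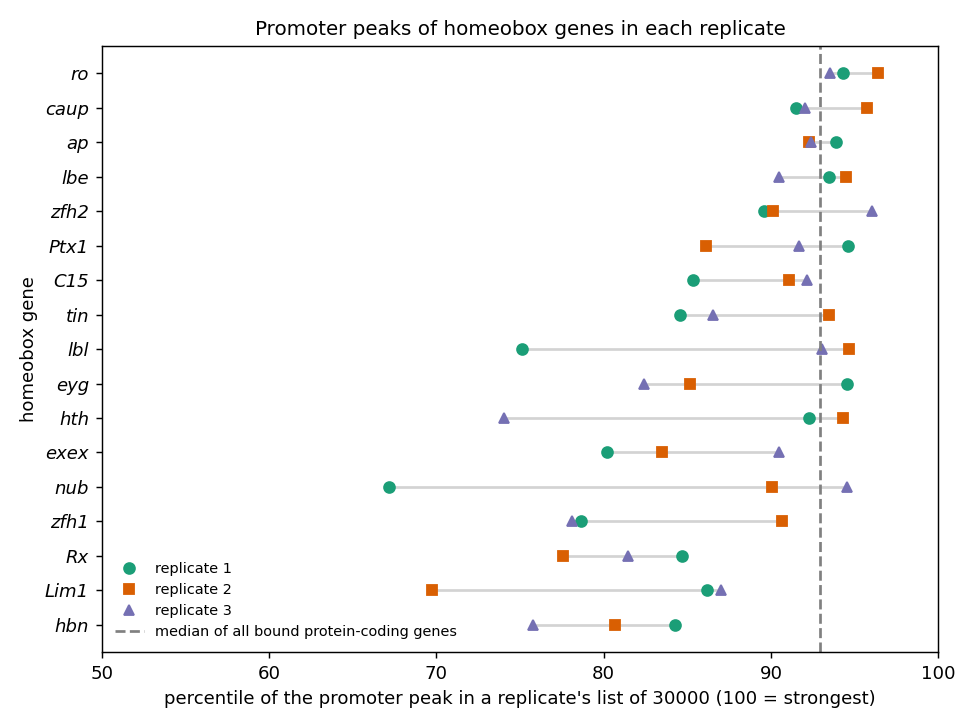
Percentile of each promoter peak in the 30000 peaks of replicates 1, 2 and 3 (100 is the strongest), for the 17 bound homeobox genes, ordered by their mean. The dashed line is the median over all bound protein-coding genes (92.9), and most points lie left of it, with nub in replicate 1 at 67.2 farthest.

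The summits lay mostly upstream. Of the 17, 16 were upstream of the homeobox start site (94.1%), against 84.2% of all bound genes, and lbe was the exception. The distance had a median of 159 bp against 112 bp over all bound genes, and ran from 378 bp upstream to 54 bp downstream. Within 100 bp of a start site, 6 homeobox genes had a summit, against 7.03 for other genes of the same classes and beside 11.3% of all protein-coding genes.

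**Figure D4:**
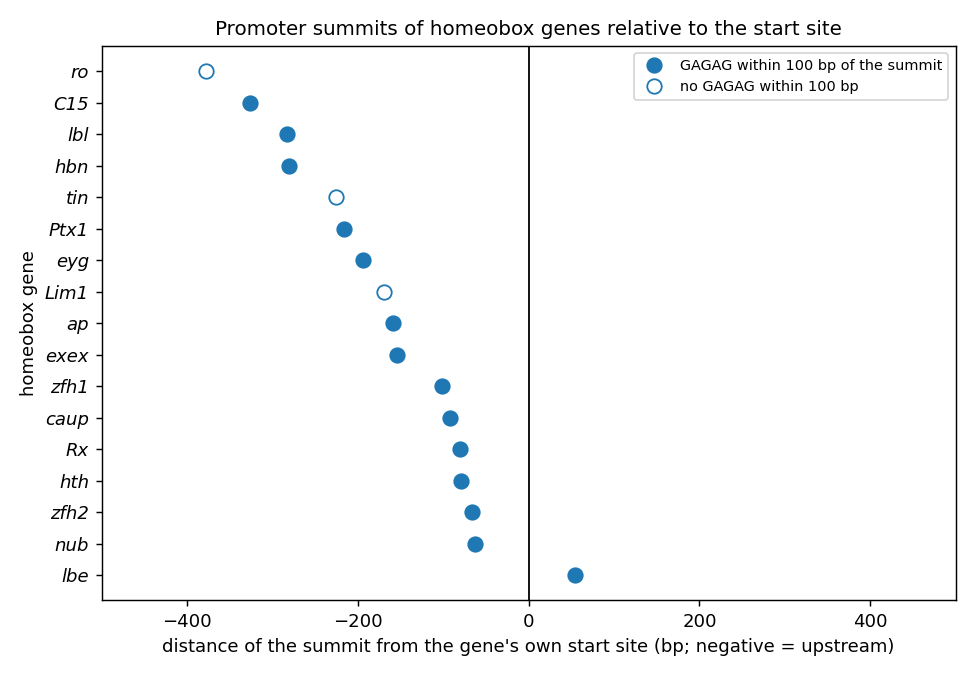
Distance in bp of the promoter summit from the gene's own start site, for the 17 bound homeobox genes (negative is upstream). Filled points have GAGAG within 100 bp of the summit and open points (ro, tin and Lim1) do not. All but lbe lie upstream.

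Inside the genes, hth held the most summits. This gene spans 132008 bp on 3R and carried 10 optimal summits in its body, of ranks 2517 to 4859, and the replicates' own top lists gave 10, 11 and 7 (9.33 ± 2.08, SD, n = 3). None ranked among the strongest 2450, and 2 of them (ranks 4286 and 4396) lay in overlapping intervals that matched the same replicate peak. The summit of rank 4512 had no peak in replicate 3. Other genes of at least 100000 bp numbered 82, with a median of 1 body summit, 30 of them with none, and 3 with as many as hth or more. The summit of rank 4311, 8029 bp upstream of the nearest hth start site, held the dense GAGAG run shown above, whereas 4 of the 10 summits of hth had no GAGAG within 100 bp.

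The strongest peak inside a homeobox gene was in otp, a gene of brain and hindgut development. It ranked 31 of 4900, with percentiles of 99.9, 99.9 and 99.9 in the replicates, and its interval on dm6 was 2R from 20884422 to 20884760. The summit lay in a coding exon of otp, the only 1 of the 34 promoter or body summits to do so, and had no GAGAG within 100 bp. It was 12993 bp from the closest otp start site, and the nearest start site was that of Cib2, at 4661 bp. The start sites of otp had no optimal summit. In ct, which sets the identity of external sense organs, 3 intronic summits had ranks 741, 2491 and 4854. The first reached percentiles of 97.8, 97.1 and 97.1, and only the last of the 3 had GAGAG within 100 bp. In zfh1, 3 intronic summits had ranks 363, 3348 and 4057, and the first 2 lay in overlapping intervals within the same replicate peaks, at 98.8, 98.9 and 98.5. The first had no GAGAG within 100 bp and the second had 3 copies. They lie where an antisense RNA gene overlaps zfh1, so the summit cannot be given to either gene. In Lim1, an intronic summit of rank 1411 reached 95.7, 95.8 and 94.6 and had 1 copy of GAGAG. The other genes with a body summit, ap, lbe and nub, had it at a promoter.

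**Figure D5:**
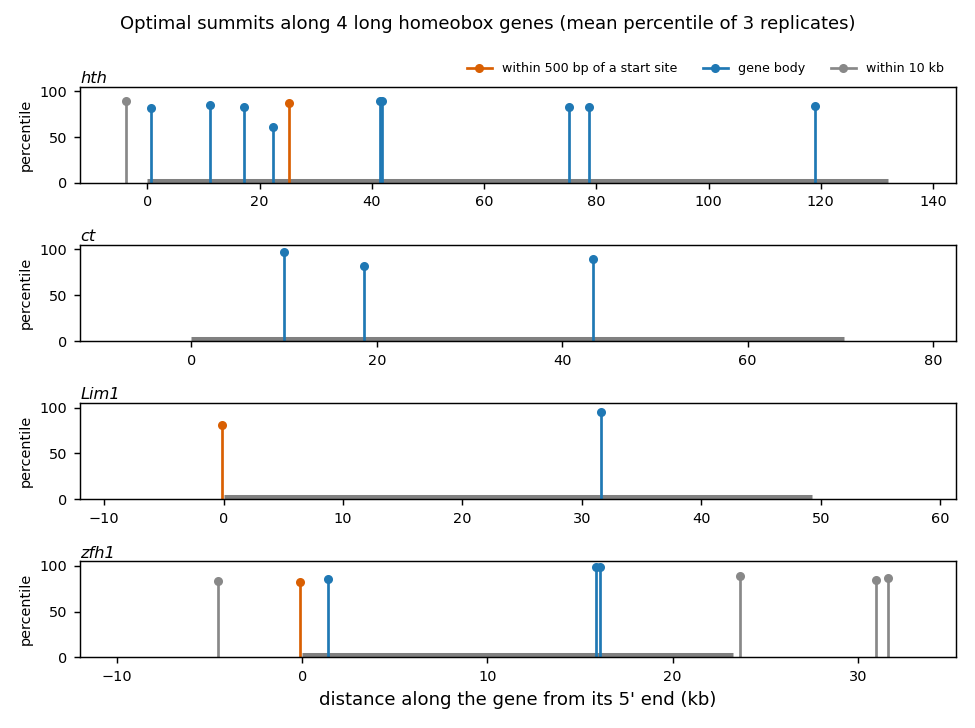
Optimal summits along hth, ct, Lim1 and zfh1, by distance in kb from the 5' end of the gene (gray bar). Height is the mean percentile of the 3 replicates, and color gives the position at a start site, in the body or within 10 kb. The 10 summits of hth are spread along the gene at like heights, except 1 at 61.1 that has no peak in replicate 3, while zfh1 has its strongest summits in 1 place.

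Over all 47 genes, body summits numbered 2.45 per 100 kb, and 1.52 without hth, against 3.16 over all protein-coding genes and 3.10 over other genes of the longest class. The value without hth is not a like comparison, since the other genes kept their extremes. Among other genes of 100 kb or more, the highest number of body summits was 17. The replicates gave 2.33 ± 0.117 per 100 kb (SD, n = 3). Outside promoters, GAGAG lay at 8 of 17 body summits (47.1%, interval 23.0 to 72.2%), a share whose interval holds the 32.3% of other optimal summits. Promoter and body summits together had it at 22 of 34 (64.7%), and the replicates gave 54.5, 67.7 and 46.4% (56.2 ± 10.8%, SD, n = 3). Of the 34, 18 lay in introns (52.9% against 45.8% of all optimal summits) and 13 between genes (38.2% against 39.0%).

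Near the genes but outside their bodies and promoters were 28 further summits, and the strongest of them often sat closer to another gene. For 13 homeobox genes such a summit was the only one, against 38.4% of all protein-coding genes with this pattern and 14.5 of 47 in the same classes. Of the 28 summits, 7 lay at the promoter of another protein-coding gene and 13 were nearest to a homeobox start site. Beyond C15, a peak of rank 50 lay 20.4 kb from its start site and 554 bp from that of sp3. The peak of rank 324 near bsh was at the promoters of CG10628 and Dus3, and that of rank 518 near Six4 at those of tzn and CG3698. A peak of rank 194 lay 3900 bp upstream of zfh2, whose start site was the nearest, with percentiles of 99.1, 99.5 and 99.4. Near tup, an Islet-type gene of motor neurons, the peak of rank 1159 lay 9051 bp upstream with tup as the nearest start site, and that of rank 983 lay at the promoter of CG10602.

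Of the 30 homeobox genes without a promoter summit, 21 (70%) had a pooled peak below the authors' threshold within 500 bp of a start site, beside 40.9% of all unbound protein-coding genes. Unbound genes of the same classes would give 17.6. A peak in all 3 replicate lists was present at 14 of the 30 (46.7%), against 22.8% of all unbound genes and 11.6 of 30 in the same classes. These relaxed lists include background calls. The nearest to the threshold was tup, whose pooled peak ranked 4961, followed by Dll at 6008, mirr at 6366, pdm2 at 6502 and otp at 6887. The genes vvl, so, Dr and Lim3 followed at 6958, 7369, 7745 and 8735. For toe, ind, bsh and acj6 no replicate list held a peak at a start site (13.3% of the 30, against 41.1% of all unbound genes).

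No optimal summit lay within 10 kb of 15 homeobox genes, namely so, Optix, toe, al, B-H1, Lim3, ind, vnd, bap, slou, gsb-n, exd, onecut, vvl and acj6. The farthest from any optimal summit was exd, the partner of Hth, whose nearest summit was 97454 bp from a start site. B-H1 followed at 67050 bp, onecut at 52514 bp and acj6 at 45671 bp. In the median, a homeobox start site lay 5839 bp from the nearest optimal summit, against 6195 bp over all protein-coding genes and 5994 bp in the same classes.

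Set beside the other homeobox genes, the promoter count was not clearly different. Of the 47 genes here 17 were bound (36.2%), against 4 of 20 patterning genes (20%) and 5 of 24 remaining homeobox genes (20.8%). In the replicates' own top lists the patterning and the remaining genes each averaged 4.67 ± 1.15 bound genes (SD, n = 3). In the same classes 14.8 of 47, 6.29 of 20 and 6.14 of 24 would be bound. By class of homeodomain, 6 of 16 ANTP genes were bound, against 4.16 for other genes of the same length and start site number, and 4 of 11 PRD genes, against 3.24. Of the smaller classes, 2 of 4 LIM genes were bound against 1.73, 2 of 5 TALE genes against 1.64, and 1 of 4 POU genes against 1.53. Both zinc finger genes (zfh1 and zfh2) were bound against 0.615, and none of the 3 SINE genes against 1.13 or of the 2 CUT genes against 0.775. Genes of chromosome 4, which held 15 of the 4900 optimal peaks, were ey, toy, onecut and zfh2, and zfh2 alone of them was bound at its promoter.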

How the data were processed

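Sonication gave fragments of 200 to 800 bp, per the labels. The authors deposited peak lists per replicate, for the pooled replicates, and after thresholding by IDR (irreproducible discovery rate), per the deposited text notes. The aligner and caller were not given in the sources used here. Each peak carries a signal value deposited by the authors on an unstated scale, which served only to rank the peaks of 1 list. The summit offset from the peak start was also deposited by the authors. The dm6 lists were used, and the dm3 lists were not used here.

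Annotation was from Ensembl release 115, and sequences from the RefSeq Release 6 genome. A percentile is a peak's rank in a replicate list of 30000 peaks, taken from the strongest replicate peak that overlapped the optimal peak by at least 1 bp, and 0 where none did. Expected counts average, over the 47 genes, the share bound among other protein-coding genes in 5 length classes by 4 classes of start site number. The replicates' own lists were taken to their strongest 4900 peaks. Exact 95% binomial intervals cover counting error only. With 1 group, no p-value was computed. Genes and peaks that neighbour each other are not independent.

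The 47 genes, the role groups and the motifs were chosen with earlier results of these data known. The genes described in full were those with a promoter summit, the 10 with the strongest summit in the body or at a promoter, and the 5 with most body summits. Other genes, and the genes nearest to a named peak, were named after their values were seen. Of the other homeobox symbols, 2 did not match the annotation and were left out. The code was tested on simulated data. Python 3.11.15, SciPy 1.17.1 and Matplotlib 3.10.9 were used.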

Additional observations from a re-analysis of the deposited data

How the results depend on the processing

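No paired analysis was possible because there is 1 group. The count of homeobox genes with a promoter summit fell to 6 with a window of 100 bp, from fewer positions. It also fell to 6 with the stronger 2450 optimal peaks, from fewer peaks. Other genes of the same classes would give 7.03 and 7.92 there. The count ran from 12 to 19 under a window of 1000 bp, the most 5' start site only, any overlap of the peak, and each replicate alone. At 1000 bp it was 19 against 16.93 in the same classes, beside 25.97% of all protein-coding genes. For the most 5' start site it was 14 against 12.52, beside 20.47%. With the gene's own start site as the nearest, chosen after seeing the data, it was 16 against 12.04, beside 16.98%. The part of neighbour number in this last difference was not tested. The body count was 13 with any overlap of the peak, against 17.5 for other genes of the same classes, and the count within 10 kb was 15 with the stronger 2450 peaks. The expected body count was 14.5 with length classes alone, against 12.8. Leaving out each replicate in turn, the mean counts ran from 13 to 16 at start sites, from 8.5 to 10 in bodies and from 29 to 31 within 10 kb. The share of promoter summits with GAGAG was 70.6% within 50 bp against 525 of 2629 for other genes, 88.2% within 250 bp against 54.1% of theirs, and 91.7% in windows of at least 50% G and C against 70.8%. The share over promoter and body summits stayed between 52.9 and 76.5% under its 4 alternatives. Leaving out hth and the split by G and C were added after seeing the data. Unknown depth limits every count of unbound genes.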
